A study of Rattus norvegicus with 12 samples.

Results

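Leukocyte and macrophage marker genes were followed in back and leg muscle of Long-Evans rats, an outbred laboratory strain, around a surgery or implantation site. The genes were Ptprc, Cd68, Adgre1, Mrc1, Csf1r, Lyz2, Cd74, C1qa, C1qb and C1qc, found by their mouse Ensembl identifiers: 10 of the 56953 genes listed. The labels describe 12 samples, all of wild-type genotype, with 6 injected with a magnetic fluid (MFIT) and 6 given no treatment or sham surgery (NT), 3 of each in each muscle. The series names collection at 7 and 14 days after surgery, but no day is given for a sample, and no age either. Counts were held in 2 tables, 1 per muscle, each with 3 columns coded ST and 3 coded WT.

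The codes ST and WT are not explained. The label texts hold ST for 0 of the 12 samples, and WT only as the genotype that all share. A column is therefore placed by its muscle and its header code alone. ST minus WT is a difference between columns, with no treatment direction. Muscle cannot be told apart from table, and perhaps not from collection day.

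Macrophages are resident in healthy muscle and gather at wounds and implanted materials, where they clear debris and help to direct repair. They depend on signals through the receptor CSF1R, carry scavenging receptors such as MRC1, present antigen with the help of CD74, and are a main source of the complement starter C1q. Ptprc encodes CD45, the surface phosphatase found on almost all white blood cells. In bulk muscle these genes report on few cells among many fibres, and fewer cells of a type cannot be told apart from less RNA per cell.

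The columns held from 3329994 to 7164682 reads counted in genes, and 52.4% to 61.2% of all reads were unmapped. Rat reads were listed under mouse identifiers, and how that affects the count of each marker was not tested. Back muscle ST columns 2 and 3 stood apart from the other back columns. Over the 10450 genes tested, their expression correlated more closely with the leg columns (mean r = 0.965 and 0.956) than with the back WT columns (0.941 and 0.953). For back ST column 1 these means were 0.938 with leg and 0.980 with back WT. The leg against back and ST minus WT differences of the tested genes are therefore also given without these 2 columns. Because the columns were picked for their likeness to leg, a larger leg against back difference without them can follow from the choice itself. The same holds for a smaller ST minus WT difference in back. Such values are no separate support.

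The 10 genes together had 1663 counts over the 12 columns, and Csf1r, Cd74 and Mrc1 made up 87.9% of them. These 3 and Adgre1 passed the filter on low counts and were tested. The other 6 did not and are described by their counts. Levels below are in CPM, a gene's share of the counts of its column, scaled with TMM, a correction for differences in RNA composition between libraries. The summed level of the 10 genes was 9.14 to 9.73 CPM in the back WT columns, 13.8 to 36.0 in back ST, 18.6 to 28.6 in leg WT and 41.5 to 75.8 in leg ST. Back ST column 2 had the highest back value, above all 3 leg WT columns, and column 3, at 18.6, lay at the lower end of their range.

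**Figure D1:**
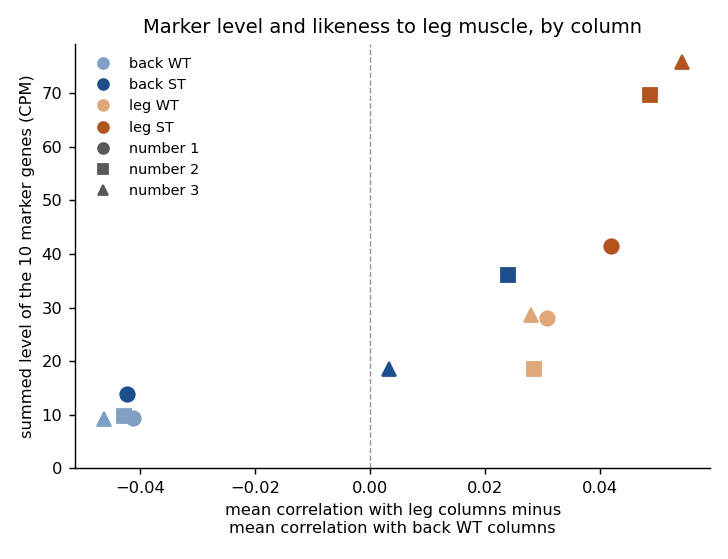
Summed level of the 10 marker genes (CPM, y axis) in each of the 12 columns, against how much more closely the column correlated with the leg columns than with the back WT columns (x axis; colour gives muscle and code, symbol the column number). Back ST columns 2 and 3 lie to the right of 0, at 36.0 and 18.6 CPM, and back ST column 1 lies with the back WT columns on the x axis but above them in level, at 13.8 CPM.

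Leg muscle columns were higher than back muscle columns in the macrophage growth factor receptor Csf1r, the mannose receptor Mrc1 and the antigen presentation chaperone Cd74, by 2.03-fold to 3.04-fold. The adhesion receptor Adgre1 (F4/80 in mice) was also called as higher in leg, but it had passed the filter on low counts through its leg columns alone, the only ones with 10 or more counts, so its call carries less weight. Called means an adjusted p under 0.05 in edgeR's quasi-likelihood test, and 22.6% of all genes tested were called in this comparison, 11.7% as higher in leg. The median log2 difference over all genes tested was 0.00.

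Csf1r (ENSMUSG00000024621), the receptor through which macrophages receive their survival signal, had the most counts of the 10. Back WT columns 1 to 3 had 2.35, 3.72 and 2.21 CPM, and back ST columns 4.92, 17.0 and 4.60 CPM. Leg WT columns had 8.85, 6.66 and 9.54 CPM, and leg ST columns 16.2, 27.3 and 28.0 CPM. Back ST column 2 was the only back column that lay among the leg values; the other 5 were below all 6 leg columns. Leg exceeded back 2.89-fold (log2 difference 1.53 ± 0.31, SE, 6 columns against 6, edgeR adjusted p = 0.0023). Without back ST columns 2 and 3 the log2 difference was 1.88, a rise that can follow from how these columns were picked.

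In order of mean level, the column sets of Csf1r were back WT (2.76 ± 0.83 CPM, SD, n = 3), leg WT (8.35 ± 1.50), back ST (8.85 ± 7.08) and leg ST (23.8 ± 6.64). Leg WT and back ST are neighbours in this order that did not differ beyond their spread.

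Mrc1 (ENSMUSG00000026712) encodes the mannose receptor CD206, a scavenging receptor typical of resident and repair macrophages. Back WT columns had 2.58, 1.42 and 1.58 CPM, and back ST columns 2.46, 6.14 and 4.22 CPM. Leg WT columns had 3.09, 3.05 and 5.50 CPM, and leg ST columns 8.16, 20.9 and 25.1 CPM. The 3 leg ST columns were above every other column, while the back ST and leg WT columns overlapped. How many of all genes tested had leg ST columns in that place was not counted, so the order is a description only. Leg exceeded back 3.04-fold (log2 difference 1.61 ± 0.35, SE, edgeR adjusted p = 0.0038). Without back ST columns 2 and 3 the log2 difference was 1.94, with the same limit.

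The means of Mrc1, from lowest to highest, were those of back WT (1.86 ± 0.63 CPM, SD, n = 3), leg WT (3.88 ± 1.40), back ST (4.27 ± 1.84) and leg ST (18.1 ± 8.84). Here too leg WT and back ST lay within their spread of each other.

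Adgre1 (ENSMUSG00000004730), the gene of the F4/80 antigen long used to identify mouse macrophages, rested on 70 counts in all. Raw counts were 0, 2 and 0 in the back WT columns, 1, 6 and 4 in back ST, 10, 1 and 4 in leg WT and 12, 11 and 19 in leg ST. All 3 leg ST columns were above every back column, an order whose share over all genes was not counted. Leg WT columns 2 and 3 had counts among those of the back columns. Leg exceeded back 4.82-fold (log2 difference 2.27 ± 0.64, SE, edgeR adjusted p = 0.018). This call was lost without back WT column 1 (log2 difference 2.02, edgeR adjusted p = 0.051) and without leg WT column 1 (1.81, edgeR adjusted p = 0.11). Without back WT column 2 the back WT columns held 0 counts, and the fitted log2 difference was 3.63 (edgeR adjusted p = 0.024). Without back ST columns 2 and 3 the log2 difference was 3.28, which is no separate support.

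Cd74 (ENSMUSG00000024610) encodes the invariant chain that escorts MHC class II molecules in antigen-presenting cells, B cells and dendritic cells as well as macrophages. Back WT columns had 3.52, 3.36 and 5.04 CPM, and back ST columns 6.07, 9.21 and 7.47 CPM. Leg WT columns had 11.3, 7.21 and 9.90 CPM, and leg ST columns 11.7, 13.6 and 11.8 CPM. Only leg WT column 2 fell among back columns, below back ST columns 2 and 3. Leg exceeded back 2.03-fold (log2 difference 1.02 ± 0.16, SE, edgeR adjusted p = 0.00046). Without back ST columns 2 and 3, picked for their likeness to leg, the log2 difference was 1.16.

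The set means of Cd74 were 3.97 ± 0.93 CPM in back WT, 7.58 ± 1.57 in back ST, 9.48 ± 2.09 in leg WT and 12.4 ± 1.08 in leg ST (SD, n = 3 each). Back ST and leg WT overlapped in their columns.

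**Figure D2:**
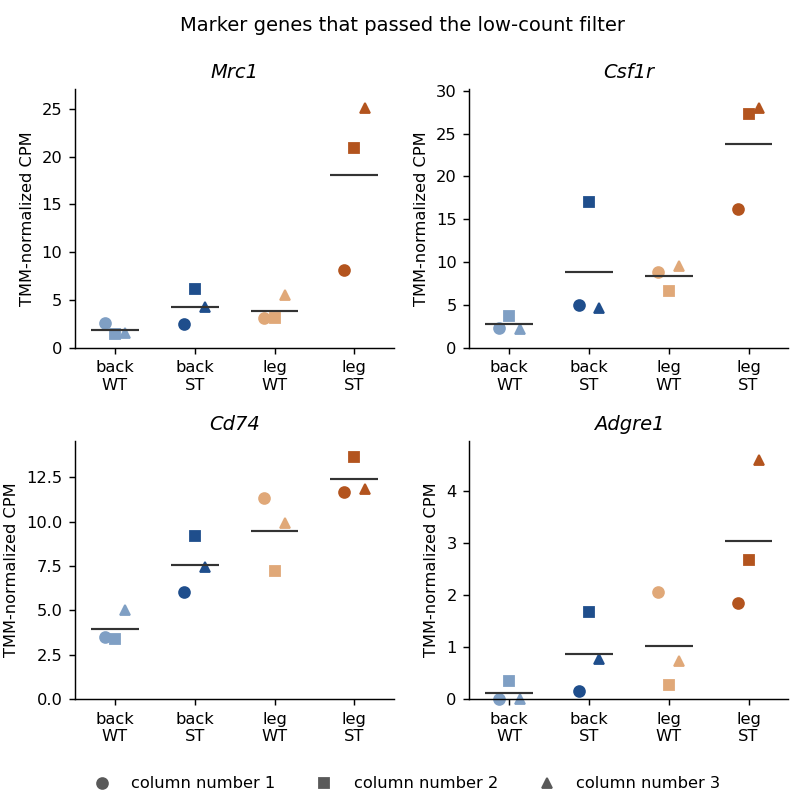
Level of Mrc1, Csf1r, Cd74 and Adgre1 (TMM-normalized CPM, y axis) in the 3 columns of each muscle and code (x axis; symbols give the column number, bars the mean). The leg ST columns have the highest mean in each panel, and back ST column 2 is the highest back column in each.

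Held to 1 code, the difference between muscles kept its direction. In the WT columns, leg exceeded back for Csf1r (log2 difference 1.56, edgeR adjusted p = 0.00063), Cd74 (1.33, edgeR adjusted p = 0.0013) and Mrc1 (1.12, edgeR adjusted p = 0.046), with 22.4% of all genes called. In the ST columns, Mrc1 passed (2.11, edgeR adjusted p = 0.049), and Csf1r (1.51, edgeR adjusted p = 0.11) and Cd74 (0.73, edgeR adjusted p = 0.10) did not, with 2.29% of all genes called. Adgre1 fell below the filter in both of these fits.

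Within leg muscle, no marker gene was called between ST and WT columns: 0 of 4 in edgeR, where 0.0766% of all genes were called (8 of 10450). The 4 estimates lay between 0.36 and 2.14 toward ST, and the median log2 difference over all genes tested was 0.01. At an unadjusted p under 0.05 in edgeR there were 3 of 4 members and 1525 of all genes, and DESeq2 called 68 genes but gave an adjusted p for none of the 4 members. The 3 members at an unadjusted p under 0.05 include Adgre1. Apart from leg WT column 1, with 10 counts, only the leg ST columns had 10 or more counts of Adgre1. It thus passed the filter mainly through the columns where it was high, and its p here carries less weight.

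Mrc1 had the largest estimate among them: leg ST columns were 4.40-fold above leg WT columns (log2 difference 2.14 ± 0.40, SE, edgeR adjusted p = 0.078). Only 0.0287% of tested genes had a larger difference toward ST. Csf1r was 2.77-fold higher in leg ST (1.47 ± 0.37, edgeR adjusted p = 0.13). For both genes the 3 ST columns lay above the 3 WT columns, as some 25% of all genes tested did in one direction or the other (12.3% toward ST). Adgre1 was 2.69-fold higher (1.43 ± 0.62, edgeR adjusted p = 0.30), with overlapping columns and the limit from the filter given above.

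Cd74 separated least. Its leg ST columns were 1.29-fold above leg WT (log2 difference 0.36 ± 0.21, SE, 95% interval -0.08 to 0.80, edgeR adjusted p = 0.43), although no ST column fell below a WT column.

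Several other choices gave calls in leg muscle, for causes that were not tested. Fitted on the 6 leg columns alone, 694 genes were called (7.08% of those tested), and Mrc1 (log2 difference 2.11, edgeR adjusted p = 0.0013) and Csf1r (1.45, edgeR adjusted p = 0.00053) were among them. Cd74 was not (0.36, edgeR adjusted p = 0.30), and Adgre1 fell below the filter. In the fit over both muscles, Mrc1 was called without leg ST column 1 (2.51, edgeR adjusted p = 0.0057). Without any other single leg column Mrc1 was not called (edgeR adjusted p from 0.14 to 0.41). Without the filter on low counts Mrc1 and Csf1r were called as well, and without TMM Mrc1 was (2.34, edgeR adjusted p = 0.041). In the fit without the filter the estimate of spread was shared almost fully over genes. A gene's own variation between columns then hardly entered its p, so calls from that fit carry less weight. Leg ST columns had 56.0% to 61.2% of reads unmapped against 56.2% to 57.7% in leg WT. The part of this in the marker differences was not tested.

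**Figure D3:**
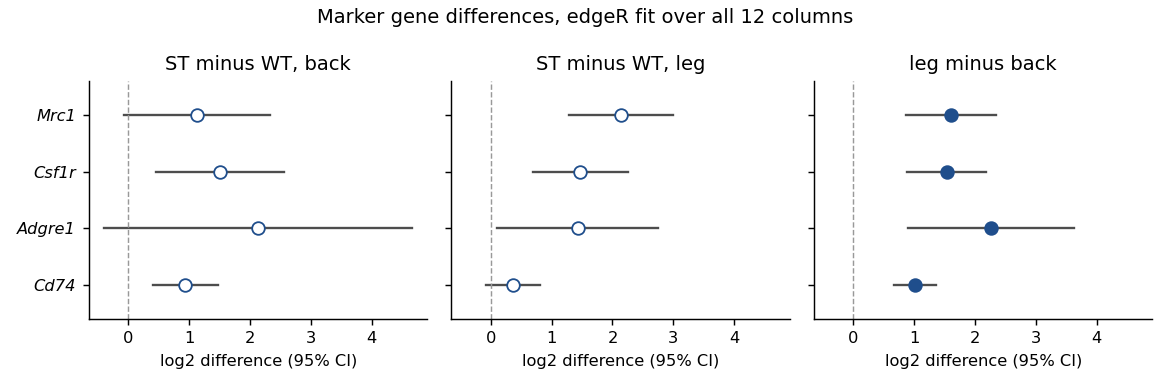
Log2 difference of Mrc1, Csf1r, Adgre1 and Cd74 (x axis, points with 95% intervals from edgeR) for ST minus WT in back, ST minus WT in leg, and leg minus back; filled points passed an adjusted p of 0.05. The 4 points for leg minus back are filled and lie between 1.02 and 2.27, and the 8 points for ST minus WT are open and lie between 0.36 and 2.14. Adgre1 passed the filter on low counts through its leg columns alone, so its filled point carries less weight.

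Within back muscle, again 0 of 4 marker genes were called between ST and WT columns in edgeR, where 3.78% of all genes were called (395 of 10450). Members at an unadjusted p under 0.05 in edgeR numbered 2 of 4, with 2394 of all genes, and DESeq2 called 596 genes (5.7%) and 1 of the 3 members it gave an adjusted p, Csf1r (log2 difference 1.60, DESeq2 adjusted p = 0.011). The estimates lay on the ST side, and the median over all genes tested was 0.01.

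Cd74 came closest in edgeR: back ST columns were 1.92-fold above back WT (log2 difference 0.94 ± 0.25, SE, edgeR adjusted p = 0.051). Csf1r was 2.84-fold higher in ST (1.50 ± 0.49, edgeR adjusted p = 0.091). In Cd74 and Csf1r the column sets did not overlap, which held for 22.2% of all genes tested (11.8% toward ST). Mrc1 (2.19-fold, 1.13 ± 0.56, edgeR adjusted p = 0.24) and Adgre1 (4.39-fold, 2.13 ± 1.19, edgeR adjusted p = 0.30) overlapped. Without the filter on low counts Csf1r, Cd74 and Mrc1 were called (edgeR adjusted p = 7.84e-06, 0.015 and 0.029), and without TMM Cd74 was (1.13, edgeR adjusted p = 0.034). The fit without the filter hardly used a gene's own spread here either, and the SE of Csf1r fell from 0.49 to 0.28. Its calls carry less weight. Fitted on the 6 back columns alone, 2 of the 9466 genes tested were called and no marker gene was among them. There Cd74 was at 0.95 (edgeR adjusted p = 0.18), Csf1r at 1.55 (0.22) and Mrc1 at 1.15 (0.23), and Adgre1 fell below the filter.

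These estimates were smaller without back ST columns 2 and 3. With back ST column 1 as the only ST column, and assumed to vary like the other sets, the log2 differences were 0.76 for Csf1r, 0.65 for Cd74, 0.41 for Mrc1 and 0.09 for Adgre1, with edgeR adjusted p from 0.67 to 1.00. Without back ST column 1 instead, Csf1r (1.80, edgeR adjusted p = 0.0089) and Cd74 (1.09, edgeR adjusted p = 0.0067) were called, with 2336 genes in all (21.7%). Without any other single back column neither was called (edgeR adjusted p from 0.083 to 0.19 for Cd74 and 0.11 to 0.34 for Csf1r). Without back ST column 2 alone, Csf1r was at 0.72 (edgeR adjusted p = 0.34) and Adgre1 at 1.40 (edgeR adjusted p = 0.64). Without back WT column 2, which held the only back WT counts of Adgre1, that gene was at 4.86 (edgeR adjusted p = 0.26). Unmapped reads were 52.4% in ST column 1, 61.0% in column 2 and 58.8% in column 3, against 54.6% to 57.7% in back WT, and their part in the marker levels was not tested.

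The ST minus WT difference was not shown to differ between the muscles for any of the 4 genes. The difference in leg minus that in back was 1.01 on the log2 scale for Mrc1 (95% interval -0.54 to 2.56), -0.03 for Csf1r (-1.20 to 1.13), -0.58 for Cd74 (-1.28 to 0.12) and -0.70 for Adgre1 (-3.41 to 2.00). Their edgeR adjusted p ran from 0.59 to 0.99. Called genes were 0% of those tested in edgeR, with 1073 at an unadjusted p under 0.05, and DESeq2 called 59. Each of the 4 intervals reaches past a doubling in at least 1 direction, so that sizeable differences remain possible at this depth. Without back ST columns 2 and 3 the values were 1.69 for Mrc1, 0.68 for Csf1r, -0.31 for Cd74 and 1.32 for Adgre1, with edgeR adjusted p from 0.46 to 0.88.

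Across the 12 columns each pair of the 4 genes correlated positively. Least alike were Mrc1 and Cd74 (Pearson r = 0.80 of log2 CPM), with 626 genes more alike to Cd74 than Mrc1 was. More alike to Mrc1 than Cd74 was were 362. Adgre1 was the member most like Csf1r (Pearson r = 0.93 of log2 CPM), and 51 of the other 10449 genes tested were more alike to Csf1r than Adgre1 was. Csf1r was in turn the member most like Mrc1 (r = 0.91, with 28 genes more alike) and most like Cd74 (r = 0.88, with 193 genes more alike). These values describe columns that share the difference between muscles, and carry no test.

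Gene starts are shown for 2 of the 4 genes tested, the receptors Mrc1 and Adgre1, as examples of matches on either strand to a macrophage factor's motif. PU.1, a transcription factor needed to make macrophages, binds a purine-rich element whose textbook core is GAGGAA, the PU box. The letters were searched on both strands in the 250 bases before the start of the rat genes (RefSeq, GRCr8), where 9 of the 10 markers had an entry, and were chosen after those sequences had been seen. Capitals mark the core, or TTCCTC where it lies on the other strand.
Mrc1, chr17:82157475-82157724, plus strand: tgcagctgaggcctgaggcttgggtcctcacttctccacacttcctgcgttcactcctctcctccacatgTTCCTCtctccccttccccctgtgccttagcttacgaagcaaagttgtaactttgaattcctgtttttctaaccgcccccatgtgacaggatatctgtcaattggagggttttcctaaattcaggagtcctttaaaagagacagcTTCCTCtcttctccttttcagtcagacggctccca
Adgre1, chr9:2329190-2329439, plus strand: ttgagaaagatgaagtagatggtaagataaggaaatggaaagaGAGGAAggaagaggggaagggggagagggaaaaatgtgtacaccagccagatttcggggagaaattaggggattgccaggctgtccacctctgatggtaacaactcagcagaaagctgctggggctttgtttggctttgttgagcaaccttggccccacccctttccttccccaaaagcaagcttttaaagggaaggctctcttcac

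Mrc1 held 2 matches and Adgre1 held 1. Of the 9 markers, 8 held at least 1, and C1qa held 0. Of all 33469 rat promoters of the same length in the table, 23.3% held one. Because the letters were chosen after the marker sequences had been seen, these shares are no test and no support for an excess. A match of letters is not a binding site, and nothing here measured binding.

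The pan-leukocyte gene Ptprc (ENSMUSG00000026395) had 36 counts in all. Counts were 1, 4 and 0 in the back WT columns, 0, 2 and 1 in back ST, 0, 2 and 5 in leg WT and 7, 8 and 6 in leg ST. The 3 leg ST columns were the highest of the 12, an order whose share over all genes was not counted. Summed over columns, Ptprc had 28 counts in leg (1.05 CPM, here of the summed gene counts and without TMM, exact Poisson 95% interval 0.70 to 1.52) and 8 in back (0.26, interval 0.11 to 0.52). The intervals of summed counts cover counting error only, not the spread between columns.

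Complement C1q is built from the products of C1qa, C1qb and C1qc, which are next to each other on rat chromosome 5. C1qa (ENSMUSG00000036887) had 50 counts: 1, 0 and 1 in back WT, 0, 3 and 4 in back ST, 6, 1 and 3 in leg WT and 12, 7 and 12 in leg ST. Again the leg ST columns were the 3 highest, with the same limit. C1qa had 1.54 CPM of summed counts in leg (41 counts, interval 1.11 to 2.10) and 0.29 in back (9 counts, interval 0.13 to 0.56).

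C1qb (ENSMUSG00000036905) had 26 counts and the same order: 1 in back WT, 4 in back ST, 7 in leg WT and 14 in leg ST. C1qc (ENSMUSG00000036896) had only 12 counts, with 2 in back WT, 1 in back ST, 6 in leg WT and 3 in leg ST, so it did not put leg ST first. The chains therefore did not share an order at this depth, and the C1qc intervals of leg ST (0.05 to 0.68 CPM) and leg WT (0.16 to 0.95) overlapped widely.

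Fitted without the filter on low counts, C1qa was called as higher in leg along with the 4 above (log2 difference 2.06 ± 0.59, SE, edgeR adjusted p = 0.0053) and 13.2% of genes were called. That fit hardly used a gene's own spread between columns, so the call of C1qa, a gene of few counts, carries less weight. C1qb (2.06, edgeR adjusted p = 0.057) and Ptprc (1.54, edgeR adjusted p = 0.10) did not pass, nor did C1qc, Lyz2 and Cd68. Between ST and WT none of the 6 low genes passed in that fit, where 5.77% of genes were called in back and 2.47% in leg.

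The phagocyte genes Cd68 and Lyz2 were almost without counts. Cd68 (ENSMUSG00000018774) encodes a lysosomal membrane glycoprotein, and its row held 1 count in back ST column 3, 1 in leg ST column 3 and 0 in the other 10 columns, which over all 12 columns is 0.035 CPM of summed counts (interval 0.0042 to 0.13). Lyz2 (ENSMUSG00000069516), the lysozyme gene of myeloid cells, had 0 counts in the 6 back columns together, which allows up to 0.098 CPM, the level of 3 counts. In leg muscle Lyz2 had 5 counts, 3 of them in WT column 1, 1 in WT column 3 and 1 in ST column 2.

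These rows set the 2 genes apart from Csf1r, Mrc1 and Cd74 in the same columns, where counts ran to 116. In mouse a near-identical lysozyme copy lies beside Lyz2, and in the rat assembly Lyc2 is its neighbour. Over all genes, 3.07% to 3.72% of reads in each column were set aside as multimapping. The share of these that came from Lyz2 is not known, and their part in its counts was not tested. Whether rat Cd68 and Lyz2 reads were lost in counting was not tested, and counts near 0 do not show that the genes were silent.

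**Figure D4:**
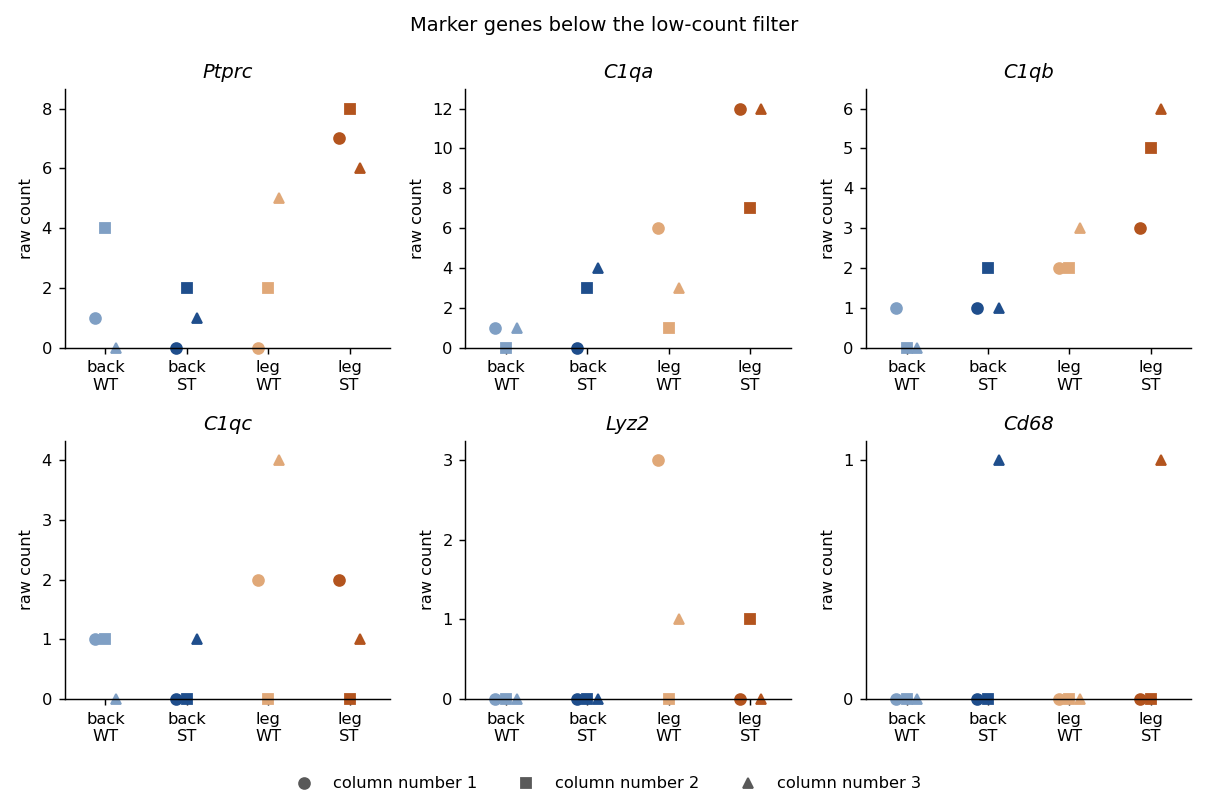
Raw counts of Ptprc, C1qa, C1qb, C1qc, Lyz2 and Cd68 (y axis, 1 scale per panel) in the 3 columns of each muscle and code (x axis; symbols give the column number). Leg ST columns hold the 3 highest counts of Ptprc and C1qa, and Cd68 has 1 count in 2 columns and 0 in the other 10. The share of all genes with leg ST columns highest was not counted.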

How the data were processed

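RNA from rat muscle was sequenced as paired ends, per the labels' protocols. The authors aligned reads with STAR and deposited raw counts per gene, per the series' design text. DESeq2 also stands in the submitters' processing notes. The authors' tool versions, build, annotation and strand setting: not given in the sources used here. Rows naming no gene, 4 in each table, were left out of library sizes: unmapped (52.4% to 61.2% of reads), multimapping (3.07% to 3.72%), without a feature (0.20% to 0.26%) and ambiguous (4.61% to 7.31%).

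Columns were placed in a muscle by their names, and in 4 sets of 3 by muscle and header code. All 12 columns entered a single fit in edgeR 4.0.16 (R 4.3.3): TMM scaling, filterByExpr (minimum count 10), the quasi-likelihood test and Benjamini-Hochberg adjustment over the 10450 genes left. The script was tested on simulated data. Alternatives included DESeq2 1.42.0, other scalings, no filter, leaving out columns and the number in the column names as a block. CPM and intervals were computed from the deposited counts. Columns within a set differed by more than sampling noise, so none was a copy of another. Whether any were repeat libraries of the same animal could not be told from this.

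All 10 members were named, whatever their values; members, lists and tests were chosen with earlier results of these data known. Lists of other leukocyte, muscle and stromal markers were not applied, because 0 of the 56953 identifiers were found in the rat reference table. Depth was 3329994 to 7164682 gene counts per column, so that 3 counts equal 0.42 to 0.90 CPM.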

Additional observations from a re-analysis of the deposited data

Results flagged for a closer look

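Within the 6 columns of a muscle, both codes together, a column far from the others was looked for in each of the 10 genes, and 3 of 20 such groups held one; chance alone gives about 1 in 20. Csf1r in back ST column 2 was at 4.12 log2 CPM (61 counts), with the next column at 2.42. Cd68 in back ST column 3 (-0.70 log2 CPM) and in leg ST column 3 (-0.59 log2 CPM) stood apart by 1 count each, with 0 in the other 5 columns of the muscle, and such a gap says nothing beyond that count.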

How the results depend on the processing

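Of the 274 values that alternatives gave for the 4 tested genes in the 4 comparisons, 240 kept their direction and their side of the threshold, 21 were newly called, 4 lost a call and 9 changed direction. The higher levels in leg than in back were called for Csf1r, Mrc1 and Cd74 under each other scaling, without the filter, in DESeq2 and with the replicate block. Adgre1 was called in these settings too, but it had entered the main test through its leg columns alone. The calls lost were those of Adgre1 and, in the ST columns only, of Csf1r and Cd74, named above. The changes of direction were confined to the difference between the muscles in the ST minus WT difference, for Adgre1 (-3.43 to 0.22 without single columns, 1.32 without back ST columns 2 and 3) and Csf1r (-0.36 to 0.73, and 0.68), neither called under any alternative run.

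The number of genes called between ST and WT moved with most choices, for causes that were not tested. In back muscle (395) it was 30 to 2336 without single columns, the highest without ST column 1, and 29 without ST columns 2 and 3. It was 2 on the back columns alone, 596 in DESeq2, 1173 without the filter and 1023 at an adjusted p below 0.10. In leg muscle (8) it was 2 to 11 without single columns, 694 on the leg columns alone, 68 in DESeq2, 503 without the filter and 15 at 0.10. For the difference between muscles (0) it was 0 to 662 without single columns, the highest without back ST column 1, 36 without back ST columns 2 and 3, 280 without the filter and 59 in DESeq2. Leg against back (2366) gave 3608 without back ST columns 2 and 3 and 224 in the ST columns only.

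Scaling by total counts in genes moved the median log2 difference of all genes to 0.19 in back, 0.19 in leg and 0.23 for leg against back, and the calls to 789, 21 and 3081, with 673 higher and 116 lower in back ST (250 and 145 with TMM), 19 and 2 in leg ST (5 and 3), and 2701 and 380 in leg (1223 and 1143). Scaling by all reads of a column, an alternative chosen after seeing the data, as was leaving out back ST columns 2 and 3, gave 1156, 13 and 3118 calls, with medians of 0.21, 0.12 and 0.20. The marker differences lay above these shifts in the 3 comparisons.

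The numbers in the column names showed no clear pairing. Deviations from the set means correlated at -0.10 to 0.17 for the 12 same-numbered pairs, 2 of them over 0.1. In 3 of the 12 pairs the best match was the same number. With 3 columns a set this cannot exclude that back and leg columns came from the same rats. The main leg against back test treated the columns as independent. With the replicate block the calls were 442 in back, 10 in leg, 0 and 2392 for leg against back, and Csf1r in back (log2 difference 1.64, edgeR adjusted p = 0.026) and Mrc1 in leg (2.13, edgeR adjusted p = 0.038) were newly called. Depth limits the low genes, since 3 counts in a column equal 0.42 to 0.90 CPM.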
